A study of Rattus norvegicus with 24 samples.

Results

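Mechanical stimulation (MS) and placebo (PLA) were compared in peripheral blood mononuclear cells (PBMCs) of arthritic rats at 34 days of therapy. The comparison holds 4 of the 24 arrays of the series, 2 of MS and 2 of PLA, chosen by sample title, and all 4 lie on the same slide. Each array carried total RNA of a separate blood sample from a female Wistar rat with collagen-induced arthritis (CIA), a model of rheumatoid arthritis raised by immunising with bovine type II collagen. MS, called AP in the labels, was a subcutaneous puncture with a short needle that was twirled, given on both sides at a lumbar and a tibial point. PLA animals had a weekly peritoneal injection of sterile saline and no needle stimulation. Ether was the anaesthetic of both arms, and the age of the animals is not given in the sources used here. An arm of arthritic animals given methotrexate (MTX) by the same weekly route was sampled at 34 days on the same slide. MS, PLA and MTX were also sampled at 1 hour on another slide. The other arrays serve the shared spread of the fit and a comparison of signal. ANE animals were arthritic, had isoflurane as anaesthetic and received no other therapy. Healthy animals without CIA are called NORA in the labels. Arthritic and healthy animals were also sampled before therapy. Both ANE arrays at 1 hour lie on the slide of the 4 arrays compared. The question was which miRNAs of circulating mononuclear cells differ between the needle arm and placebo once therapy has run its course.

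MicroRNAs are short RNAs that guide a silencing complex to messenger RNAs, and the bases at positions 2 to 8 from the 5′ end, the seed, carry most of the pairing with a target. Members of a family share a seed and so can bind the same target sites, while the rest of the sequence and the locus of origin differ. In blood, several miRNAs mark a lineage: miR-150 and miR-342 are abundant in mature lymphocytes, miR-223 in myeloid cells, miR-126 in platelets and endothelium, and miR-451 and miR-144 in red cells. Mature sequences were taken from RefSeq (rat build GRCr8) for 179 of the 210 miRNAs tested, of which 44 had the array's own name and 135 were matched through the arm that the older name stands for.

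The sequences below belong to 3 families that share a seed and whose members lay on opposite sides of placebo. Seeds (bases 2 to 8) are in capitals and each sequence runs 5′ to 3′.
miR-181a: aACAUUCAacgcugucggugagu
miR-181b: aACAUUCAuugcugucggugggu
miR-181c: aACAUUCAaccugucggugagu
miR-181d: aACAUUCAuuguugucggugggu
miR-15b: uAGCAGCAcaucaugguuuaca
miR-16: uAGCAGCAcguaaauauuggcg
miR-195: uAGCAGCAcagaaauauuggc
miR-322: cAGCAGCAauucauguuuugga
miR-497: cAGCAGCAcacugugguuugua
miR-25: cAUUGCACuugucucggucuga
miR-363: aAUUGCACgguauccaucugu
miR-92a: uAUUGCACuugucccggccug
miR-32: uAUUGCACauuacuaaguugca

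The sequences that follow are those of 8 miRNAs with large differences between MS and PLA outside these families, the first 4 lower and the last 4 higher in MS. No 2 of them share a seed.
miR-3558-3p: aCUGUGGAggguuucuaugu
miR-1949: uAUACCAGgaugucagcauaguu
miR-3588: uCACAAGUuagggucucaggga
miR-146a: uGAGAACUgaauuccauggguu
miR-339-5p: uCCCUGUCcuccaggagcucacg
miR-338: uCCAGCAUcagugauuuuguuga
miR-331: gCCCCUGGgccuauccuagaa
miR-10a-5p: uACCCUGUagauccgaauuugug

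The 4 arrays did not carry the same amount of signal. The summed intensity of detected miRNAs was 519917 on MS replicate 1, the highest of the series, 305171 on MS replicate 2, and 191876 and 181337 on the PLA arrays. The labelling spike-ins, synthetic RNAs added before labelling, differed far less, with geometric means of 1876 and 1647 on the MS arrays and 1560 and 1659 on the PLA arrays. More of the 677 miRNAs were detected in MS (191 and 195) than in PLA (153 and 151). Values were therefore scaled to the 75th percentile of the 132 miRNAs detected on all 24 arrays, and each level given below is log2 of the scaled intensity. After this scaling the median difference over the 210 miRNAs tested, those detected on at least 3 arrays, was 0.21. Without scaling it was 1.13, and with scaling to the spike-ins it was 1.01. Scaled values thus say which miRNAs were high or low relative to the rest of the profile, and not how much of each was present.

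No miRNA passed an adjusted p of 0.05 in limma's test of MS against PLA (0 of 210, 0% called), and the smallest adjusted p was 0.0622, shared by 36 miRNAs. Unadjusted, 84 of the 210 had a p under 0.05 (40%), 69 higher in MS (32.9%) and 15 lower (7.14%). The study selected miRNAs on a fold above 2 together with an unadjusted p below 0.05. Of the 140 miRNAs detected on all 4 arrays, 31 passed this threshold (22.1%). Of these, 20 were higher (14.3%) and 11 lower (7.86%) in MS. The split moved with the scaling, to 89 higher and 3 lower without scaling, 76 and 3 with the spike-ins, and 10 and 13 with the percentile taken over all miRNAs. For each of the 31 both MS arrays lay on the same side of both PLA arrays, as they did for 81.4% of the 140 miRNAs. The smallest two-sided p an exact permutation test can give with 2 arrays against 2 is 0.333, so none is given for single miRNAs.

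Leaving out an MS array leaves 1 array in that arm, so the spread in such a fit comes from the other groups only. The tests rested on MS replicate 1. Without it, no miRNA passed the study's threshold and 4 had an unadjusted p under 0.05, while without MS replicate 2 there were 91 calls at an adjusted p of 0.05 (78 higher and 13 lower) and 53 miRNAs past the study's threshold. All 31 kept their sign without either MS array, but they were chosen on these same arrays, which favours such agreement. Of the 140 miRNAs detected on all 4 arrays, 121 had the same sign on both MS arrays. Replicate 2 lay closer to placebo than replicate 1 for all 31. The median of the 20 higher miRNAs was 1.72 above the PLA mean on replicate 1 and 0.84 above it on replicate 2, and the median of the 11 lower ones was 2.17 below and 0.92 below (values of -2.17 and -0.92).

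**Figure D1:**
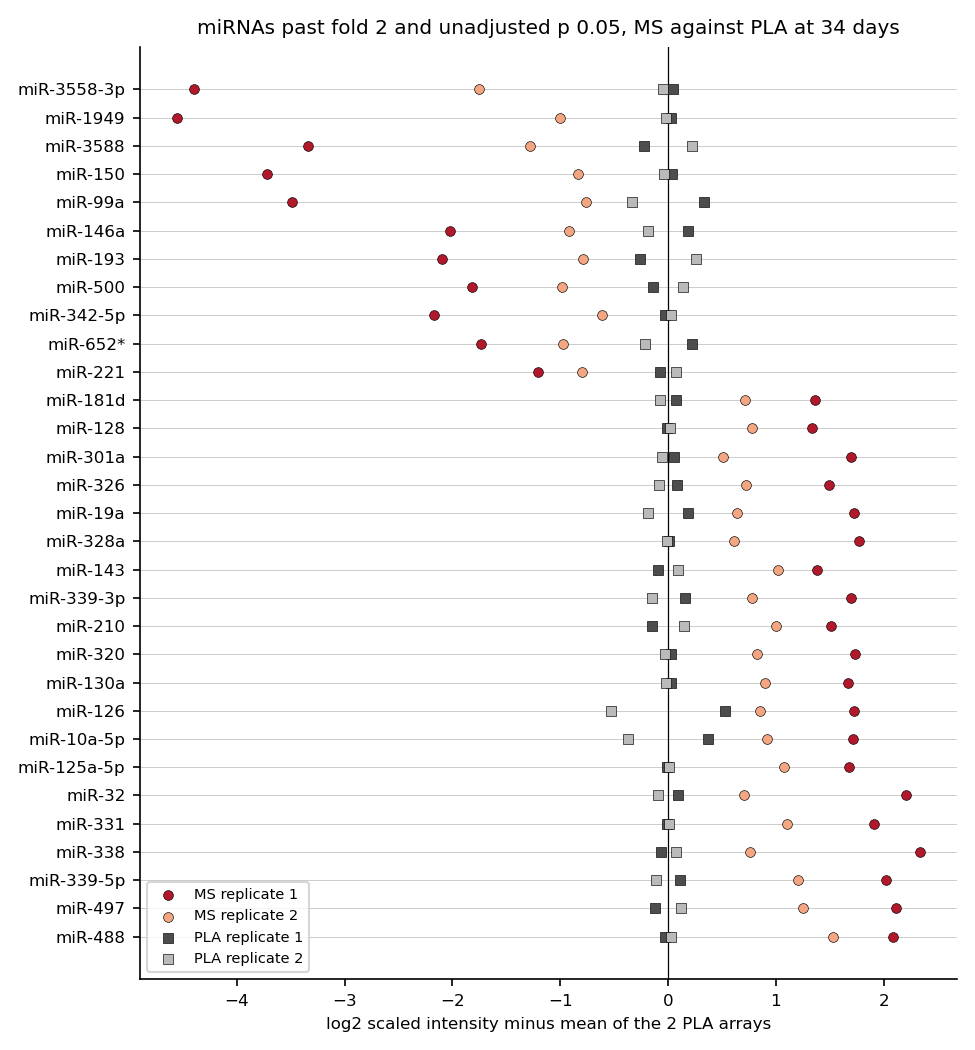
The 31 miRNAs past the study's threshold are shown with 1 point per array, as log2 scaled intensity minus the mean of the 2 PLA arrays at 34 days. Both MS points lie outside the PLA points in every row, with replicate 1 (dark red) farther out than replicate 2 (light red); miR-3558-3p and miR-1949 lie farthest to the left.

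Among the 31 miRNAs past the study's threshold, the largest differences were in those lower in MS. miR-3558-3p was at 2.53 and 5.17 in MS and at 6.97 and 6.88 in PLA, a difference of -3.08 ± 1.12 (SE of the fit, n = 2 and 2). The value of 2.53 is the floor of the scale, so on MS replicate 1 it is a bound. miR-1949 was at 4.66 and 8.22 against 9.24 and 9.19 (-2.78 ± 1.03), and miR-3588 at 5.61 and 7.67 against 8.73 and 9.17 (-2.31 ± 0.73). In all 3, replicate 1 was 2 or more units below replicate 2, which itself was below both PLA arrays.

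miR-150, which restrains the transcription factor Myb in lymphocyte development, was the brightest of the 11. Its level was 9.55 and 12.43 in MS and 13.31 and 13.23 in PLA, a difference of -2.27 ± 0.89. Replicate 2 thus differed from placebo by far less than from replicate 1. In unscaled intensity miR-150 read 1645 and 8006 in MS and 9139 and 7947 in PLA, so replicate 2 lay between the PLA arrays.

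miR-146a, which NF-κB induces and which damps Toll-like receptor signalling, was at 7.31 and 8.42 in MS and 9.52 and 9.15 in PLA (-1.47 ± 0.53). miR-342-5p, of the lymphocyte miRNA miR-342, was at 3.54 and 5.10 against 5.68 and 5.75 (-1.39 ± 0.65), and its adjusted p of 0.122 in the limma fit was the highest of the 31. miR-221, a platelet and vascular miRNA which targets Kit and the cell cycle inhibitor p27, was at 5.15 and 5.56 against 6.29 and 6.44 (-1.01 ± 0.45). In each of these the groups did not overlap.

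The other miRNAs of the lower set were miR-99a (-2.12 ± 0.85), miR-193 (-1.44 ± 0.64), miR-500 (-1.40 ± 0.53) and miR-652* (-1.35 ± 0.45), the last being the passenger strand of its hairpin. Of these, miR-99a spread most between the MS arrays, with levels of 3.34 and 6.07 against 7.16 and 6.50 in PLA. The direction of 10 of the 11 was the same without scaling and with every other scaling tried, and only miR-221 changed sign, to 0.04 without scaling. The 11 were chosen for a large difference on these same arrays. Scaling each array by 1 factor moves all differences by nearly the same amount, so such agreement was favoured. In unscaled intensity, MS replicate 1 was below both PLA arrays for 10 of the 11, and both MS arrays were below for 4, which were miR-3558-3p, miR-1949, miR-3588 and miR-500.

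Among the 20 miRNAs higher in MS past the study's threshold, miR-488 had the largest difference. Its levels were 5.91 and 5.35 in MS and 3.79 and 3.85 in PLA (1.81 ± 0.58). miR-497 followed at 7.27 and 6.40 against 5.03 and 5.28 (1.68 ± 0.51). Both arms of the miR-339 hairpin were in the set, miR-339-5p at 5.35 and 4.54 against 3.45 and 3.22 (1.61 ± 0.54) and miR-339-3p at 4.67 and 3.74 against 3.12 and 2.81 (1.24 ± 0.41). For these 4 miRNAs replicate 2 lay between replicate 1 and placebo. The sizes depended on the processing. In the authors' deposited log2 table miR-488 was at 0.86, miR-339-5p at 0.63 and miR-339-3p at 0.47, while miR-497 was at 1.56. After quantile normalization miR-339-3p was also at 0.47.

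miR-126, an endothelial and platelet miRNA that sustains VEGF signalling, was at 7.58 and 6.71 in MS and 6.38 and 5.33 in PLA (1.29 ± 0.47). miR-130a, abundant in platelets, was at 11.60 and 10.82 against 9.95 and 9.90 (1.29 ± 0.38). miR-210, the main miRNA target of hypoxia-inducible factor, was at 9.25 and 8.75 against 7.59 and 7.89 (1.26 ± 0.38). All 3 were separate from placebo on both MS arrays, and miR-126 had the widest PLA arrays of the set. miR-143, a miRNA of smooth muscle and mesenchymal cells, was at 9.04 and 8.69 against 7.57 and 7.76 (1.20 ± 0.46). miR-10a-5p, encoded in a Hox cluster, was at 6.002 and 5.21 against 4.66 and 3.92 (1.32 ± 0.45).

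The remaining members of the 16 largest were miR-338 (1.55 ± 0.51), miR-331 (1.51 ± 0.47), miR-32 (1.46 ± 0.60), miR-125a-5p (1.38 ± 0.43), miR-320 (1.28 ± 0.38), miR-328a (1.19 ± 0.47) and miR-19a (1.18 ± 0.39). miR-338 was uneven, at 8.57 and 6.99 in MS against 6.16 and 6.30 in PLA. A further 4 miRNAs past the study's threshold had smaller differences, miR-301a, miR-326, miR-128 and miR-181d. All 20 were higher in MS under every scaling tried. They were chosen for a fold above 2 on these same arrays. Scaling each array by 1 factor moves all differences by nearly the same amount, so for such scalings this was nearly fixed in advance.

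**Figure D2:**
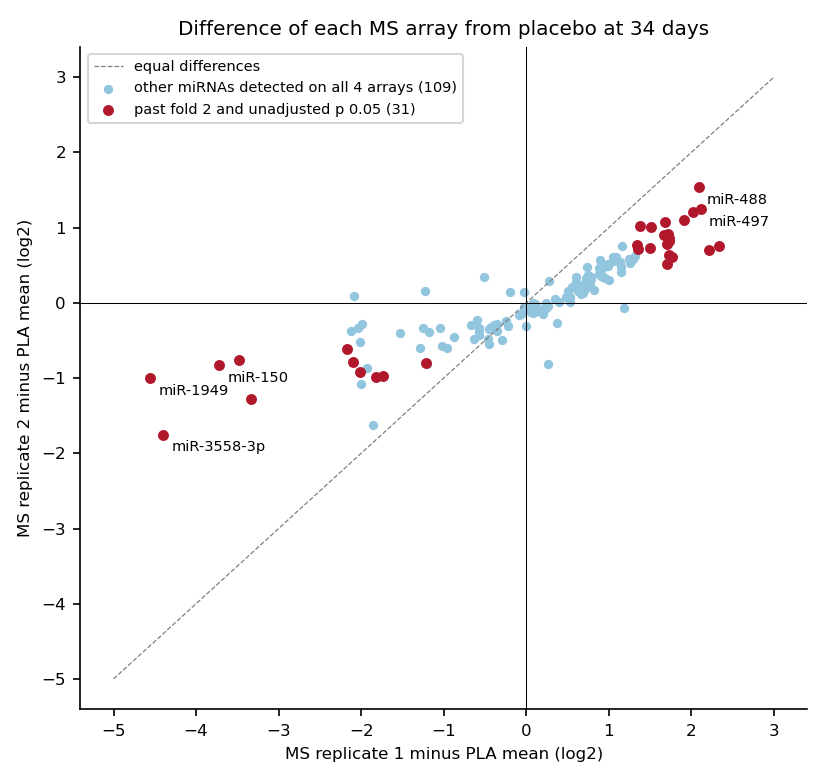
For the 140 miRNAs detected on all 4 arrays, the difference from the PLA mean (log2) on MS replicate 1 is plotted against that on replicate 2, with the 31 miRNAs past the study's threshold in red and a dashed line where both would be equal. Points lie mainly in the lower left and upper right and nearer to the horizontal axis than the dashed line.

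Over these 140 miRNAs the difference from placebo had the same sign on both MS arrays for 121 of 140, and across miRNAs, which are not independent replicates and share the PLA mean, Pearson's r was 0.886. A line through the origin gave replicate 2 a difference 0.385 times that of replicate 1. The median absolute difference between the MS arrays was 0.48, against 0.13 between the PLA arrays.

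There were 27 miRNAs detected on both MS arrays and neither PLA array, and 0 the other way round. Where a miRNA was not detected, the listed value is the software's error and only an approximate bound can be given. For the bound, each PLA array was given its lowest detected signal, or the listed value where that was larger, and the MS mean was set against the mean of these. This is not a strict limit, since undetected miR-22* had listed PLA values above the lowest detected signal. By this bound miR-383, at 6.66 and 5.52 in MS, was 9.28-fold higher than in PLA. Bounds of 2-fold or more were also had for miR-466b-2* (3.54-fold), miR-421* (2.99), miR-22* (2.54), miR-99b (2.44), miR-542-3p (2.35), miR-3584-5p (2.19), miR-503 (2.18) and miR-301b (2.11). These bounds depend on the signal used. In the deposited log2 table the differences of the 9 ran from 0.16 (miR-3584-5p) and 0.41 (miR-301b) to 1.72 (miR-383), and with the mean spot signal miR-3584-5p was at -0.47. For 5 of the 27 the bound was under 1 and no fold is given. The MS arrays had more signal and more detected miRNAs than the PLA arrays, and the part of signal in this count was not tested. In the limma fit none of the 9 had an adjusted p under 0.05.

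Within 3 families, members with the same seed lay on opposite sides of placebo, and in each family no member's MS arrays overlapped its PLA arrays (71% of all 210 miRNAs do not overlap). In the miR-181 family, which tunes lymphocyte receptor signalling, miR-181c was at 8.55 and 7.84 in MS against 7.41 and 7.10 in PLA (0.94 ± 0.30) and miR-181d at 8.82 and 8.18 against 7.54 and 7.39 (1.04 ± 0.32). miR-181a was at 9.16 and 9.59 against 10.09 and 9.99 (-0.66 ± 0.38) and miR-181b at 6.58 and 6.68 against 6.97 and 6.98 (-0.34 ± 0.26), but both were above placebo without scaling (0.38 and 0.70) and with the spike-ins (0.25 and 0.57). miR-181c and miR-181d come from the same short locus, chr19:40888291-40888556 on the plus strand of GRCr8.

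The miR-15/16 family, which restrains the cell cycle, was divided in the same way. miR-497, at the levels given above, and miR-195, at 7.66 and 7.22 against 6.73 and 7.03 (0.56 ± 0.18), come from chr10:55450171-55450581 (plus strand). miR-322 was at 7.97 and 7.47 against 6.94 and 7.04 (0.73 ± 0.28). The far brighter miR-15b, at 12.85 and 12.96 against 13.21 and 13.34 (-0.37 ± 0.17), and miR-16, at 13.13 and 13.23 against 13.62 and 13.55 (-0.40 ± 0.23), were below placebo, and above it without scaling (0.67 and 0.64) and with the spike-ins (0.54 and 0.51).

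In the family of miR-25, miR-32, miR-92a and miR-363, miR-32 was at 6.83 and 5.32 against 4.71 and 4.52 and miR-92a at 12.81 and 12.27 against 12.09 and 12.09 (0.45 ± 0.21), though miR-92a was at -0.10 after quantile normalization. miR-25 was at 9.78 and 9.77 against 10.26 and 10.23 (-0.47 ± 0.22) and miR-363 at 6.39 and 7.30 against 7.59 and 7.69 (-0.80 ± 0.47). Without scaling these last 2 were above placebo (0.57 and 0.24), and with the spike-ins too (0.44 and 0.12).

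**Figure D3:**
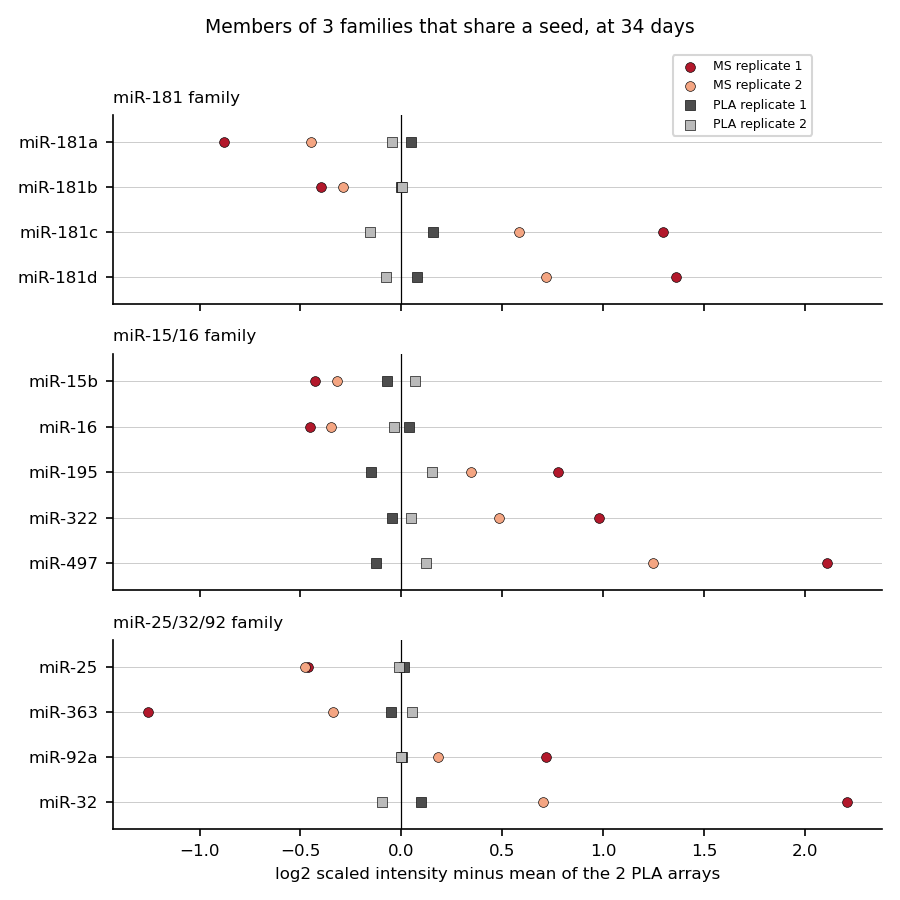
Members of 3 families that share a seed are shown with 1 point per array at 34 days, as log2 scaled intensity minus the mean of the 2 PLA arrays. In each panel some members have both MS points to the left of both PLA points and the others have them to the right.

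The distance between members of a family on the same array is left as it is by any scaling that multiplies the array by 1 factor. The log2 ratio of miR-181c and miR-181d to miR-181a and miR-181b was 0.82 and -0.13 in MS and -1.05 and -1.24 in PLA, a mean difference of 1.49. For miR-195 and miR-497 over miR-15b and miR-16 it was -5.53 and -6.28 against -7.53 and -7.29 (1.51), and for miR-32 and miR-92a over miR-25 and miR-363 it was 1.73 and 0.26 against -0.52 and -0.66 (1.59). All 3 ratios were thus higher on both MS arrays than on both PLA arrays. After quantile normalization, which is no such scaling, the mean differences were 1.23, 1.32 and 1.29, and in the deposited log2 table they were 1.56, 1.30 and 1.62. MS replicate 1 had the highest value of all 24 arrays for each ratio. MS replicate 2 did not stand apart, since 4, 4 and 5 of the other 22 arrays were above it. The ratios were chosen after the values were seen and are given as a description.

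A further 6 seed families had 3 or more members tested and matched to a RefSeq sequence. In the miR-130/301 family the 3 matched members were above placebo on both MS arrays (0.60 to 1.42, the highest being miR-301b, undetected in PLA), as was miR-301a (1.11 ± 0.40), which has no match, and in the let-7 family, which promotes differentiation, the 8 members ran from 0.04 to 0.85. let-7e, the highest, was at 7.98 and 7.51 in MS against 6.89 and 6.90 in PLA (0.85 ± 0.31). It shares the locus chr1:67350064-67350759 (plus strand) with miR-99b and miR-125a, and of the 4 mature miRNAs tested from it 3 were above placebo on both MS arrays with an unadjusted p under 0.05. The miR-29 family lay below placebo in all 3 members (-0.69 to -0.09), none with an unadjusted p under 0.05. Of all miRNAs tested, 43.3% were above and 27.6% below placebo on both MS arrays, and 32.9% were higher at that level. Counts in families this small are given as a description.

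miRNAs of the miR-17-92 cluster, a polycistron that promotes proliferation of lymphoid and myeloid precursors, lay on the same side of placebo. All 7 listed members were above placebo on both MS arrays with an unadjusted p under 0.05. Of all miRNAs tested, 43.3% were above placebo on both MS arrays and 32.9% were higher at that level. Their median difference was 0.83, against 0.21 over all miRNAs, and their range was 0.45 to 1.18. miR-17-5p was at 11.51 and 10.995 in MS against 10.53 and 10.35 in PLA (0.81 ± 0.23), miR-20a at 12.81 and 12.36 against 11.81 and 11.71 (0.83 ± 0.23) and miR-18a at 9.81 and 9.16 against 8.69 and 8.45 (0.91 ± 0.29). The locus lies at chr15:98587848-98588632 on the plus strand. Of the 9 mature miRNAs tested from it, passenger strands included, 9 were above placebo on both MS arrays and 8 had an unadjusted p under 0.05. The exception was miR-19b-1* (0.91 ± 0.51), which was undetected in PLA. miR-17-5p, miR-19b and miR-92a have the same mature sequence in a cluster at chrX:137342777-137343647 (minus strand), so their signal cannot be assigned to either locus. That cluster also holds miR-363 (-0.80) and miR-20b-5p (0.68). The list median was 0.59 on MS replicate 2 alone and ran from 0.47 to 0.84 under other scalings that use the miRNAs themselves. It was 1.87 without scaling and 1.74 with the spike-ins.

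The list of miRNAs near miR-500, miR-532 and miR-362 lay mainly on the other side. Of 6 members tested, 5 were below placebo on both MS arrays (27.6% of all miRNAs) and 1 overlapped, with a median of -0.64, and 1, miR-500, had an unadjusted p under 0.05 (7.14% of all were lower at that level). miR-188 was at 3.61 and 5.32 in MS against 5.69 and 5.62 in PLA (-1.19 ± 0.77) and miR-532-3p at 4.93 and 4.83 against 5.40 and 5.35 (-0.50 ± 0.24). The median of the list was above placebo without scaling (0.40) and with the spike-ins (0.27).

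The lists that bear on the study's question are inflammation, wound healing with epithelial-mesenchymal transition (EMT), and response to mechanical force. Their medians lay between -0.09 and 0.25, beside 0.21 over all miRNAs. Both MS arrays were above placebo for 1 inflammation miRNA and below it for 3. For wound healing and EMT they were above for 2 and below for 3. For mechanical force they were above for 3 and below for 0. Of all miRNAs tested, 43.3% were above and 27.6% below on both MS arrays. Of 6 inflammation miRNAs tested, 1 was lower with an unadjusted p under 0.05 (miR-146a) and 0 were higher, where 7.14% and 32.9% of all miRNAs were, with a median of -0.09. Their median became 0.95 without scaling. miR-21, which belongs to all 3 lists and promotes fibrosis and survival, was the brightest of the miRNAs named here and overlapped between groups, at 14.66 and 14.84 in MS and 14.41 and 14.96 in PLA (0.06 ± 0.28). Its difference depended on the scaling, at 1.10 without scaling, 0.98 with the spike-ins, 1.46 in the deposited log2 table and -0.17 with the percentile over all miRNAs.

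Of 15 EMT and wound healing miRNAs 8 were tested, 2 were higher with an unadjusted p under 0.05 (32.9% of all miRNAs were) and the median was 0.02. The 2 were miR-210 and miR-141, a miR-200 family member that holds the epithelial state, which was detected on neither PLA array and was at 3.80 and 3.21 in MS. The median changed sign under 8 of 17 alternatives. The other miR-200 members and miR-205, which define epithelium, were detected on fewer than 3 arrays. Of 7 mechanosensitive and vascular miRNAs tested, 3 were higher at that level, miR-126, miR-143 and miR-92a, where 32.9% of all miRNAs were. Their median was 0.25, and it was 0.15 without MS replicate 1, 0.51 without MS replicate 2 and 1.27 without scaling. Of the 3, miR-92a was below placebo after quantile normalization, as given above. The miR-10a of this list had no array entry of that name and was not counted. The entry miR-10a-5p, given above, was higher with an unadjusted p under 0.05 (1.32 ± 0.45).

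Markers of blood lineages differed between the same arrays. Of the 7 lymphocyte miRNAs listed, 5 were below and 2 above placebo on both MS arrays (27.6% and 43.3% of all miRNAs tested), with a median of -0.66 (0.38 without scaling and 0.25 with the spike-ins). Their summed scaled intensity was 2977 and 8119 in MS against 13402 and 12943 in PLA. miR-150 made up most of the sum on MS replicate 2 and both PLA arrays, but not on MS replicate 1. miR-342-3p was at 9.49 and 10.18 in MS against 10.69 and 10.86 in PLA (-0.94 ± 0.48), and 0.10 without scaling. miR-181c and miR-181d, the 2 above placebo, are in this list too. In bulk RNA, fewer cells of a type and less RNA per cell cannot be told apart.

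All 5 myeloid miRNAs listed were above placebo on both MS arrays, 4 of them with an unadjusted p under 0.05, with a median of 0.63 and a range of 0.41 to 0.74. Over all miRNAs tested, 43.3% were above on both arrays and 32.9% higher at that level. The median was 0.35 without MS replicate 1 and 1.68 without scaling. Their summed scaled intensity was 30470 and 21371 in MS and 17628 and 17899 in PLA. miR-223, the defining myeloid miRNA, was at 13.57 and 13.08 against 12.80 and 13.04 (0.41 ± 0.25), with MS replicate 2 just above PLA replicate 2. miR-23a, miR-27a and miR-24, which lie together at chr19:40859455-40859843 (minus strand), differed by 0.64 ± 0.26, 0.55 ± 0.22 and 0.63 ± 0.24. miR-24 has the same mature sequence at a further locus on chromosome 17, so its signal cannot be assigned to either.

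Platelet miRNAs summed to 3878 and 2343 in MS and 1450 and 1381 in PLA. Of 5 tested, 3 were higher and 1, miR-221, lower at an unadjusted p under 0.05 (32.9% and 7.14% of all miRNAs). The other member, miR-222, was at -0.12 and detected only on MS replicate 1. The erythroid miR-451 was at 12.11 and 13.04 in MS against 14.15 and 14.07 in PLA (-1.54 ± 0.94), and miR-144 at 7.91 and 8.30 against 9.26 and 8.96 (-1.01 ± 0.95, and 0.04 without scaling). Both were below placebo on both MS arrays, and limma's unadjusted p was 0.125 for miR-451 and 0.306 for miR-144. The pan-leukocyte miR-142-3p was bright on all 4 arrays, as is usual in blood leukocytes, and overlapped between groups. The other pan-leukocyte miRNA listed, miR-142-5p, was at 9.83 and 9.64 in MS against 10.24 and 10.03 in PLA (-0.40 ± 0.39). It was thus below placebo on both MS arrays, as were 27.6% of all miRNAs tested. Liver and muscle markers were low or undetected apart from miR-143. The liver miR-192 was detected on all 4 arrays, at 4.26 and 4.60 in MS against 4.32 and 4.60 in PLA. Of the same list, miR-194 was detected on both MS arrays (3.67 and 3.59) and neither PLA array, and miR-122 on none of the 4. The part of cell composition in the differences named above was not tested.

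**Figure D4:**
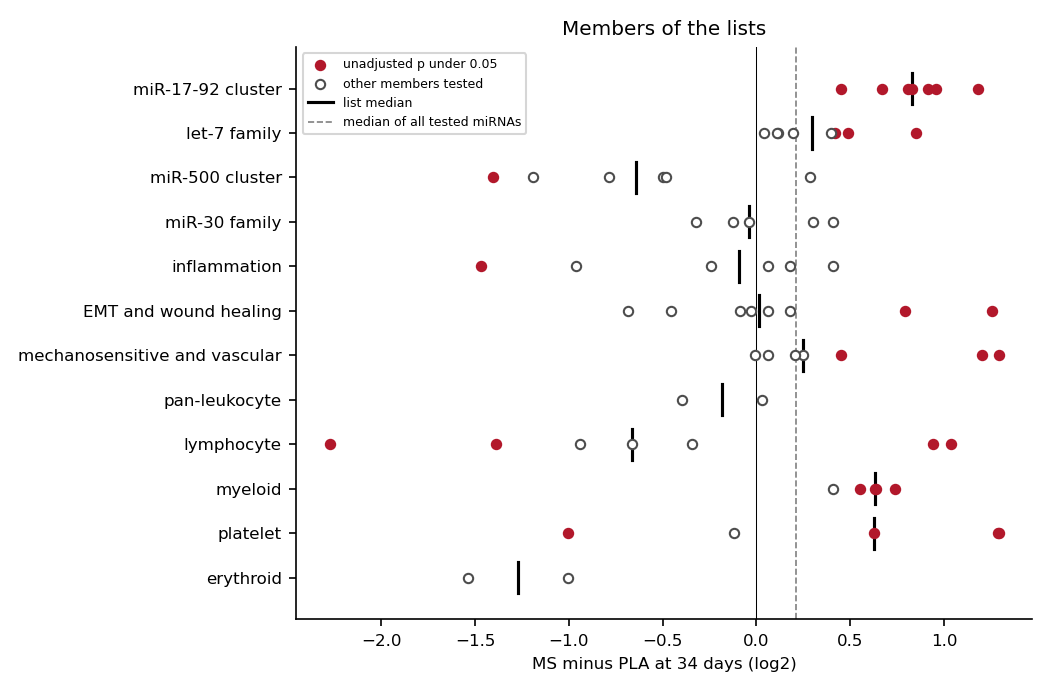
Each point is a miRNA tested from a list, placed by its difference between MS and PLA at 34 days (log2), and filled where the unadjusted p was under 0.05. Black bars are list medians and the dashed line is the median of all 210 miRNAs (0.21); the miR-17-92, myeloid and platelet medians lie to its right and the lymphocyte, erythroid and miR-500 cluster medians to its left.

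MTX and MS shared the PLA arrays, so their differences from placebo are not independent and are set side by side. MTX against PLA gave 5 miRNAs with an unadjusted p under 0.05 (2.38%) and 0 at an adjusted p under 0.05. For the 20 miRNAs higher in MS the median difference of MTX from PLA was 0.47, and for the 11 lower ones it was -0.67. This came mainly from MTX replicate 1, with medians of 0.83 and -1.02, next to 0.14 and -0.26 on MTX replicate 2. Tested directly, MS against MTX gave 37 miRNAs with an unadjusted p under 0.05 (17.6%) and 0 with an adjusted p under 0.05, and 8 of the 20 and 1 of the 11 were among the 37. The 20 and 11 were chosen on the same MS arrays, which favours their place among the 37.

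Arrays of other arms and times also had medians away from 0, some of them with a high summed intensity and some without. MTX replicate 1 had a summed intensity of 303079, close to the 305171 of MS replicate 2, and its medians were close to the 0.84 and -0.92 of that array. MTX replicate 2, at 194596, lay near placebo. MS replicate 1 at 1 hour, the array with the next highest sum of the series (371061), had medians of 1.02 and -2.14, while MS replicate 2 at 1 hour (186549) had -0.02 and 0.02. PLA replicate 2 at 1 hour, which had no needle stimulation, had medians of 0.92 and -0.87 at a sum of 224351. ANE, an arm under isoflurane with no needle stimulation, had medians of 1.13 and -1.09 on replicate 1 at 1 hour, at a sum of 206588, and PLA replicate 1 at 1 hour had -0.03 and -0.13 at almost the same sum (207196). ANE replicate 2 at 1 hour had 0.64 and -0.31 at a sum of 267934. Healthy animals without therapy (NORA in the labels), sampled at 34 days on another slide, had medians away from 0 on both arrays. These were 0.72 and -0.61 on replicate 1 (sum 206949) and 0.68 and -0.80 on replicate 2 (226165). ANE at 34 days had 0.63 and -0.49 on replicate 1 (237650) and 0.01 and 0.11 on replicate 2 (181212). The part of summed intensity in the difference between MS and PLA was not tested.

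**Figure D5:**
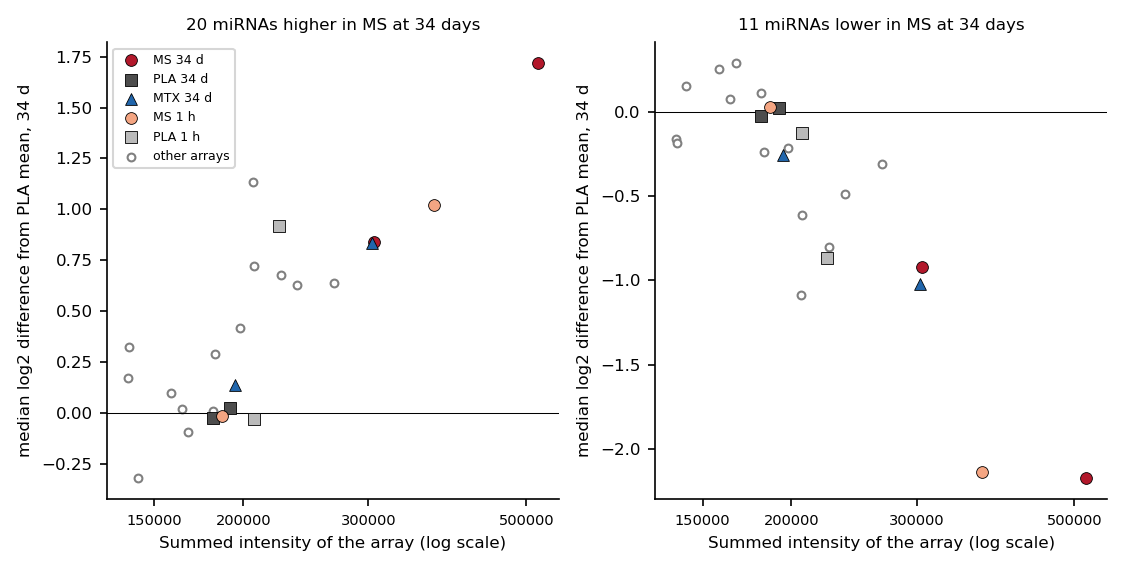
Each point is an array of the series, placed by the summed intensity of its detected miRNAs (log axis) and by the median log2 difference from the PLA mean at 34 days of the 20 miRNAs higher in MS (left) and the 11 lower in MS (right). These miRNAs were chosen on the MS and PLA arrays at 34 days; MS replicate 1 at 34 days lies farthest out in both panels, and arrays of other arms, with and without stimulation, also lie away from 0.

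At 1 hour MS against PLA had 20 miRNAs with an unadjusted p under 0.05 (9.52%) and 2 calls (0.952%). The 20 miRNAs higher at 34 days had a median difference of 0.0019 at 1 hour, with 10 above and 10 below placebo and 0 with an unadjusted p under 0.05. For the 11 lower miRNAs the median at 1 hour was -0.35, and 10 of 11 were below placebo. The change in the MS-to-PLA difference from 1 hour to 34 days was tested as an interaction and gave 0 calls at an adjusted p under 0.05 in limma, with a smallest adjusted p of 0.184. Unadjusted, 49 miRNAs had a p under 0.05 (23.3%), among them 9 of the 20 and 1 of the 11. The 20 and 11 were chosen on the arrays at 34 days that also enter this test. The choice favours a large change, so these counts are a description only. Of the 20, miR-320 was at -0.44 at 1 hour and 1.28 at 34 days, a change of 1.71 ± 0.54, and miR-497 at -0.40 and 1.68 (2.08 ± 0.72).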

How the data were processed

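PBMC total RNA was labelled with Cy3 and hybridised to 1-colour Agilent rat miRNA arrays (24 arrays, 3 slides of 8). Images were read by the authors with Agilent Feature Extraction 10.7, and the deposited intensity values are background-subtracted and not normalised between arrays. The authors also deposited a log2 table of the same arrays, used as an alternative. The sample records name RMA as a processing tool, and the study summarised its raw signals with AgiMicroRNA. Details of the scaling of that table are not given here. Detection flags were taken as the software set them.

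Total intensities per miRNA were scaled by the 75th percentile over 132 miRNAs (factors 0.452 to 1.42), floored at 5.76 and log2-transformed. The 210 miRNAs detected on at least 3 of 24 arrays were tested with limma 3.58.1 in R 4.3.3, in 1 model of 12 group means with 12 residual degrees of freedom, two-sided, with Benjamini-Hochberg adjustment over the 210. SE is the moderated standard error of the fit. The fit was tested on simulated data. The number of arrays limits the precision. A difference between slides cannot enter the comparison of MS with PLA, since all 4 arrays share a slide and a scan.

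miRNAs were named where they passed the study's threshold (up to 16 a direction), were detected in only 1 group, or belonged to a list. The members and lists were chosen with earlier results of these data known. The arm behind an older name was assigned from general nomenclature. A correction with normexp used the median spot signal. Other alternatives were scalings, filters, floors, weights, subsets of arrays and leaving out arrays. Scaling to the spike-ins, undetected miRNAs at the floor, and leaving out arrays of other groups were chosen after seeing the data.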

Additional observations from a re-analysis of the deposited data

Results flagged for a closer look

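Of the 35 miRNAs detected on only 1 or 2 arrays of the series, which were not tested, 11 were detected on an MS array at 34 days and 0 on a PLA array at 34 days. All 11 were detected on MS replicate 1 and 0 on replicate 2. They included miR-199a-3p (unscaled intensity 33.6 on MS replicate 1), miR-126* (29.1), miR-31 (14.5) and miR-132 (10.2). Of the same 35, 10 were detected on MS replicate 1 at 1 hour and 14 on PLA replicate 2 at 1 hour.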

How the results depend on the processing

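The 0 calls of MS against PLA at 34 days became 124 without scaling (122 higher and 2 lower), 118 with the labelling spike-ins, 412 of 677 without a filter, 32 of 140 among miRNAs detected on all 4 arrays and 1 with a lower floor, and remained 0 under the other settings. Leaving out 1 of the 4 arrays gave 0 to 91 calls. Leaving out either MS array at 1 hour, which enters only the shared estimate of spread, gave 49 calls (38 higher and 11 lower), and the other 18 arrays gave 0. The 31 miRNAs past the study's threshold became 92 without scaling, 79 with the spike-ins, 5 after normexp (0 higher and 5 lower) and 16 with only the arrays compared, and ran from 0 to 53 when 1 of the 4 arrays was left out (18 without PLA replicate 2, 12 higher and 6 lower; 22 without PLA replicate 1, 19 higher and 3 lower). The test of 34 days against 1 hour gave 0 to 5 calls when 1 array was left out (5 without MS replicate 1 at 1 hour, 2 without PLA replicate 1 at 1 hour, 1 without MS replicate 2 at 34 days) and 0 under the other settings. The cause of these shifts was not tested.

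Of 63 named miRNAs, 14 changed sign under at least 1 alternative. Without scaling these were miR-221 (0.037), miR-15b (0.67), miR-16 (0.64), miR-181a (0.38), miR-181b (0.70), miR-25 (0.57), miR-363 (0.24), miR-144 (0.036), miR-342-3p (0.10), miR-125b-5p (0.079) and miR-532-3p (0.55). With the spike-ins they were miR-15b (0.54), miR-16 (0.51), miR-181a (0.25), miR-181b (0.57), miR-25 (0.44), miR-363 (0.12) and miR-532-3p (0.42). miR-92a was at -0.10 after quantile normalization, miR-3584-5p at -0.47 with the mean spot signal and miR-532-3p at 0.0024 after normexp. miR-21 was at 1.10 without scaling, 0.98 with the spike-ins, 1.46 in the deposited log2 table, -0.17 with the percentile over all miRNAs, -0.057 with the median as scale, and between -0.22 and 0.34 when 1 of the 4 arrays was left out. The 20 higher miRNAs kept their direction under every alternative, but they were chosen for a large difference on these same arrays, which favours this.

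Replicate numbers were not taken to pair the samples. The deviations of same-numbered MS and PLA arrays correlated at 0.044, and over 66 pairs of groups this correlation ran from -0.767 to 0.845 (median -0.034). A single correlation cannot show whether samples are paired. With the replicate number as a block there were 0 calls and 30 miRNAs past the study's threshold, and 0 calls against 1 hour.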
